A study of Mus musculus with 32 samples.

Results

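This account is about the anti-m6A IP libraries of mouse liver and about 1 contrast in them: how far the difference between Mettl14 knockout and control livers depended on surgery. The contrast takes in 16 of the 32 libraries of the series, all the IP libraries, in 4 groups of 4 animals: hepatectomised Mettl14 KO, hepatectomised flox control, sham-operated Mettl14 KO and sham-operated flox control. The hepatectomised animals were 72 or 73 days old, the sham KO animals 72 or 73 days, and the sham flox animals 71 to 77 days. The control animals are labelled only as flox controls. The promoter or Cre line behind the deletion, the sex of the animals and the time between surgery and tissue collection were not stated in the labels. The interaction is the KO minus flox difference after hepatectomy, less the same difference after sham surgery, on a log2 scale. A negative value means that a gene stood lower in KO relative to flox after hepatectomy than it did after sham surgery.

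N6-methyladenosine (m6A) is a methyl mark on adenosines inside mRNA. It is written by a complex in which METTL3 holds the catalytic site and METTL14 positions the RNA, and it is read by YTH-domain and other proteins that act on splicing, translation and decay of the message. In an m6A IP, RNA is broken into short fragments and pulled down with an antibody against the mark, so the level of a gene in such a library depends on how much of its mRNA there is and on how much of it the antibody retains. After part of the liver is removed, hepatocytes pass through an immediate early gene response, an acute phase response in which secreted defence and clotting proteins are made, growth of the ribosome pool, and then DNA synthesis and division.

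The IP libraries held 7133766 to 24297854 counts. The library of hepatectomised KO replicate 4 stood apart, with the lowest total and the fewest genes of at least 10 counts (6676, against 8597 to 16846 in the other IP libraries). Mettl14 was too low to check the genotype: its IP level was 0, 2.7, 0 and 0 CPM (read counts scaled to a common library total) in hepatectomised KO livers, against 2.54, 0, 1.3 and 0.671 CPM in hepatectomised flox livers, and 0, 2.88, 0 and 1.74 CPM in sham KO livers, against 0, 8.35, 0 and 5.44 CPM in sham flox livers. All 8 hepatocyte markers were found in the IP libraries, as the liver label requires, and their summed level was 15953 to 35153 CPM in hepatectomised KO, 45099 to 57619.9 in hepatectomised flox, 34559 to 63088 in sham KO and 44644 to 63388 CPM in sham flox livers. In bulk tissue, fewer cells of a type and less RNA per cell cannot be told apart, nor, in an IP library, can less retention by the antibody. The median interaction of these 8 markers was -0.66 in the IP libraries and -0.00028 in the input libraries.

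In the IP libraries 4 genes passed the test of the interaction, and in all 4 the level was far lower in hepatectomised KO livers than in any other group. They were Elovl3, the elongase of saturated and monounsaturated fatty acids with very long chains, Cyp8b1, the sterol 12-alpha-hydroxylase that sets the share of cholic acid in bile, Slc3a1, the heavy subunit of the transporter of cystine and dibasic amino acids, and Gm8893, a pseudogene. These 4 calls were 0.0285% of the 14024 genes tested with edgeR's quasi-likelihood test (Benjamini-Hochberg adjusted p under 0.05), and none was higher.

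Cyp8b1 (ENSMUSG00000050445, protein-coding, chromosome 9, 121914356 to 121916305, minus strand) had 0.0551, 3.28, 0 and 0 CPM in hepatectomised KO livers, against 321, 299, 198 and 341 CPM in hepatectomised flox livers. After sham surgery it had 111, 318, 414 and 114 CPM in sham KO livers, against 313, 399, 283 and 109 CPM in sham flox livers. The 4 hepatectomised KO libraries lay under all other 12, with a single one of them above 1 CPM, while the 2 sham groups overlapped. The KO minus flox difference was -8.31 after hepatectomy and -0.21 after sham surgery, on the log2 scale, and the interaction was -8.11 (SE 1.22, edgeR adjusted p = 0.00227, n = 4 each). From the 74 counts of the hepatectomised KO group, the level was 261 times lower there than in hepatectomised flox livers (95% interval 208 to 332, counting error only). Nearly all of these counts came from the library at 3.28 CPM, so the ratio and its interval rest on that library. The interval leaves out the spread between animals. In the input libraries of the same livers Cyp8b1 was present throughout, at 74.5, 87.8, 142 and 264 CPM in hepatectomised KO livers, against 273, 221, 416 and 301 CPM in hepatectomised flox livers, and its input interaction of -1.38 did not pass (edgeR adjusted p = 0.852).

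Elovl3 (ENSMUSG00000038754, protein-coding, chromosome 19, 46131897 to 46135694, plus strand) had 0.0551, 0, 0.0553 and 0.127 CPM in hepatectomised KO livers, against 97.3, 195, 75.8 and 99.3 CPM in hepatectomised flox livers. The sham levels were 62.1, 97.6, 64.4 and 4.22 CPM in sham KO livers, against 309, 269.7, 82.9 and 115 CPM in sham flox livers. All 4 hepatectomised KO libraries together held 3 counts of it. Its interaction was -9.28 (SE 1.13, edgeR adjusted p = 0.000142, n = 4 each), a fitted value that depends on the prior count, and from the counts the level in hepatectomised KO livers was 2596 times lower than in hepatectomised flox livers (95% interval 888 to 12590.1, counting error only). Sham KO replicate 4, at 4.22 CPM, was the lowest library outside the hepatectomised KO group. The input held Elovl3 in all 4 hepatectomised KO livers, at 453, 71.99, 229 and 74.2 CPM, against 0, 180.2, 161 and 272 CPM in hepatectomised flox livers. Elovl3 overlaps Pitx3, a gene of lens and neuron development, over 414 bases, so reads there could be assigned to either.

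Slc3a1 (ENSMUSG00000024131, protein-coding, chromosome 17, 85028376 to 85064236, plus strand) had 9.42, 6.93, 2.16 and 0.254 CPM in hepatectomised KO livers, against 223, 204, 176 and 139 CPM in hepatectomised flox livers. In sham-operated livers it had 27.8, 274, 98.7 and 64.5 CPM in sham KO livers, against 79.4, 105, 134 and 70.5 CPM in sham flox livers. Hepatectomised KO livers again lay under every other library. The hepatectomised flox livers lay above all 4 sham flox livers, so that the gene stood lower after hepatectomy in KO and higher in flox livers. The interaction was -5.54 (SE 0.97, edgeR adjusted p = 0.0173). This call ended without sham KO replicate 2 (-4.68, adjusted p = 0.09), without sham flox replicate 1 (-5.46, 0.0704) and without sham flox replicate 2 (-5.59, 0.0546), the last 2 being the animals aged 77 days. In the inputs Slc3a1 had 0.0841, 155, 237 and 0 CPM in hepatectomised KO livers, against 98.6, 319.8, 108 and 77.2 CPM in hepatectomised flox livers. It overlaps Prepl, a peptidase gene, over 1726 bases.

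Gm8893 (ENSMUSG00000090555, pseudogene, chromosome 12, 103817856 to 103822243) is named here after its values were seen, because predicted genes were outside the naming rule. It had 34.6, 20.4, 14.8 and 56.8 CPM in hepatectomised KO livers, against 662, 826, 633 and 874 CPM in hepatectomised flox livers. After sham surgery it had 365, 1011, 282 and 441 CPM in sham KO livers, against 408, 527, 998 and 933 CPM in sham flox livers. The interaction was -4.12 (SE 0.61, edgeR adjusted p = 0.00227), and hepatectomised KO livers lay under all other libraries. Serpina1a and Serpina1d, members of the alpha-1-antitrypsin family, lie 31052 and 44223 bases from it. Serpina1e, of the same family and chromosome, was among the abundant genes named by the rule. Its level was 155, 123, 50.1 and 385 CPM in hepatectomised KO livers, against 4730.3, 5008, 2892 and 5191 CPM in hepatectomised flox livers, and 884, 4967, 2316 and 456 CPM in sham KO livers, against 3577, 3154, 6671 and 3911 CPM in sham flox livers. Its interaction of -3.64 did not pass with all libraries (SE 0.77, edgeR adjusted p = 0.113), and it passed without hepatectomised KO replicate 4 (-4.35, adjusted p = 0.00612), sham KO replicate 1 (-3.90, 0.0468) or sham KO replicate 4 (-3.98, 0.0135). Reads that fit several members of this family could be split between them, so the values of single members are uncertain.

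Near absence of an abundant gene was seen beyond these genes, and it was uneven over the libraries. Of the 1402 genes with a mean of at least 100 CPM over the IP libraries, 30 (2.14%) were under 1 CPM in at least 1 library. The number of such genes was 8, 4, 5 and 25 in hepatectomised KO replicates 1 to 4, against 0 in each hepatectomised flox library, 0, 0, 0 and 1 in sham KO, and 0 in each sham flox library. In the input libraries 506 of 1373 such genes (36.9%) were under 1 CPM in at least 1 library. All 4 genes were also called without hepatectomised KO replicate 4 (Elovl3 -9.68, Gm8893 -4.56, Cyp8b1 -7.77 and Slc3a1 -5.17). The part of this unevenness in the 4 calls was not tested.

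**Figure D1:**
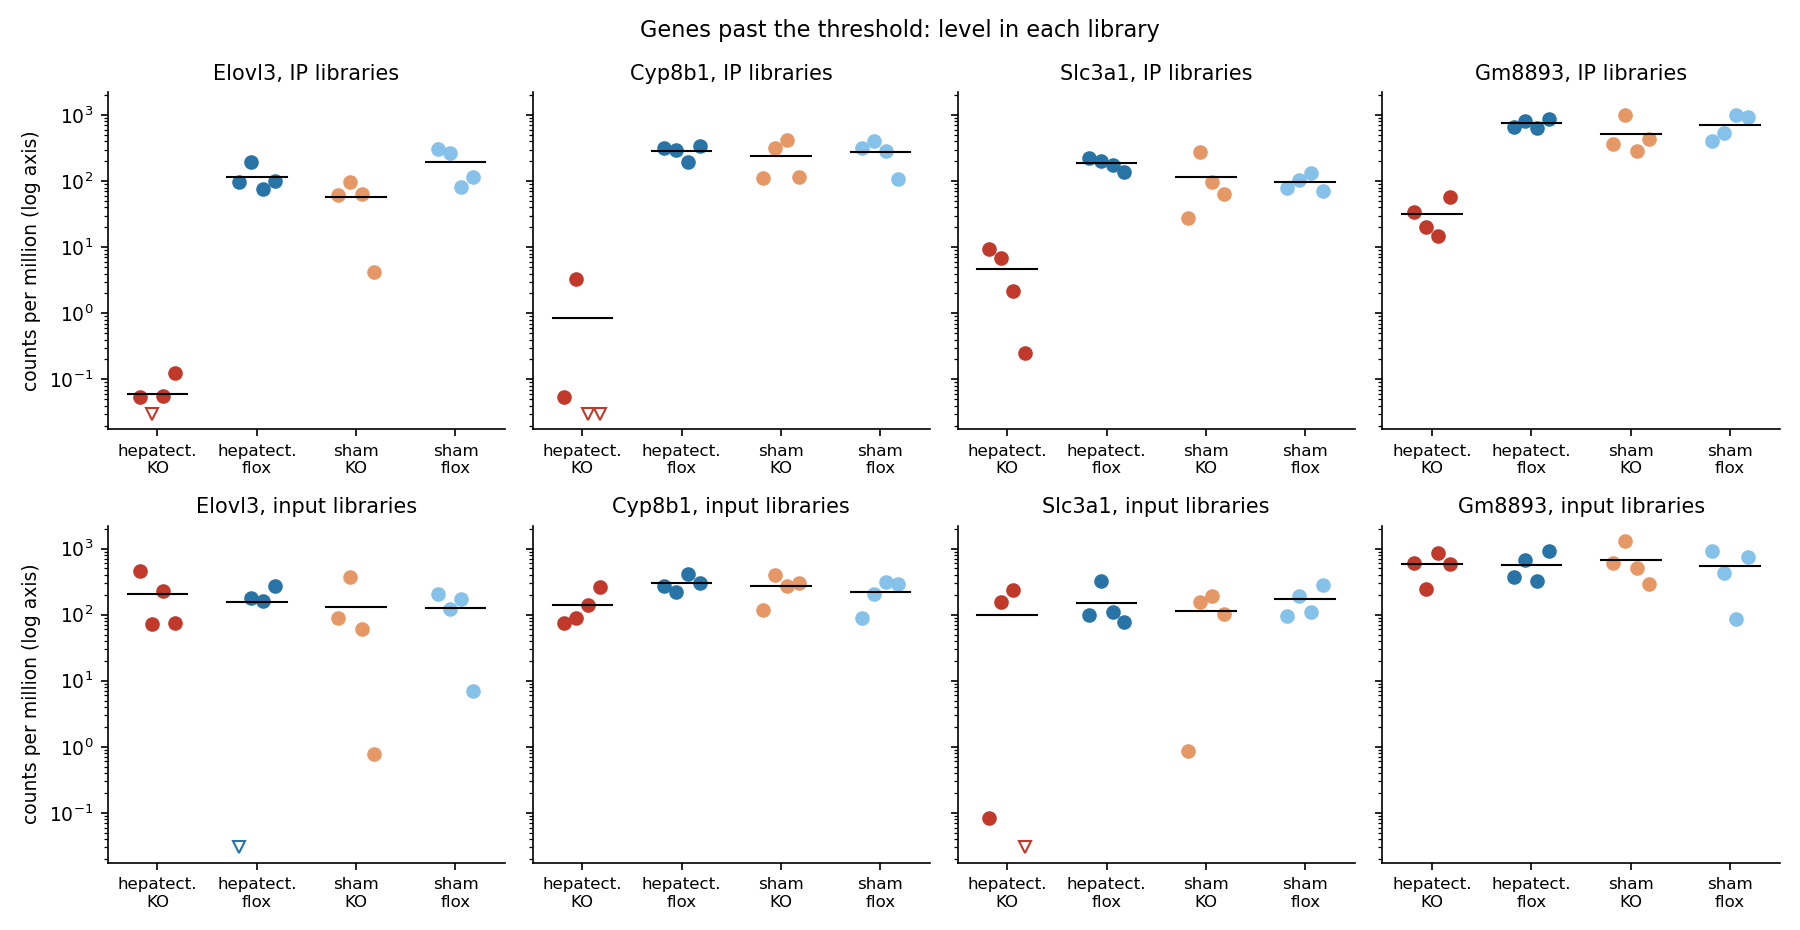
Level of the 4 genes past the threshold in each library, in CPM on a log axis, in IP libraries (upper row) and input libraries (lower row) of hepatectomised KO, hepatectomised flox, sham KO and sham flox livers. Points are animals (replicates 1 to 4, left to right), bars are group means, and open triangles at the foot are libraries listed at 0. In IP, the hepatectomised KO points lie under all 12 others for each gene, and in input the groups overlap.

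The 250 bases before the start of Cyp8b1 and Slc3a1, which were low together, are shown from RefSeq on GRCm38.p6, read along the gene's own strand. Capitals mark TATAAA, the letters of the TATA box, searched on both strands beside CCAAT and TTCNNNGAA, the STAT-type element of acute phase genes, neither of which is in these 2 windows. Elovl3 and Gm8893 were not in the promoter table.
Cyp8b1, chr9:121916306-121916555, minus strand: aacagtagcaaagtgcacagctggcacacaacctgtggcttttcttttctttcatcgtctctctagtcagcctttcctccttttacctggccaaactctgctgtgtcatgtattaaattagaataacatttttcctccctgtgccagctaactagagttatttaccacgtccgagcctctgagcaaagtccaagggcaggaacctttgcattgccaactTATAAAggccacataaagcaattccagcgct
Slc3a1, chr17:85028097-85028346, plus strand: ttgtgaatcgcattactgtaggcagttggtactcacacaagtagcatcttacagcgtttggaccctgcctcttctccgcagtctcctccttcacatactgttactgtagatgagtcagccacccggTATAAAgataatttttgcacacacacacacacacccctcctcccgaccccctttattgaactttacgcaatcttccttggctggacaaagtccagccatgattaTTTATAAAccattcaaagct
The windows end just before RefSeq's start of each gene, which for Slc3a1 lies upstream of the start in the deposited table (85028376), and distances are counted from RefSeq's start. TATAAA begins 31 bases before the start of Cyp8b1, and 124, 20 and 18 bases before that of Slc3a1, where the last 2 matches overlap on opposite strands. Over 27025 promoters of the same length, 3504 (13%) held TATAAA, 34.5% CCAAT and 7.18% TTCNNNGAA.

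Over all genes the contrast leaned to the negative side. The median interaction of the 14024 genes was -0.25, and it was -0.28 for the 1402 genes of at least 100 CPM and -0.52 for the 109 of at least 1000 CPM. At an unadjusted p under 0.05 there were 1107 genes (7.89%), of which 755 were negative (5.38%) and 352 positive (2.51%). In simulated IP data with the real spread, 764 of 13079 genes with no interaction put in were also under 0.05. The median depends on the scaling and on the genes taken: for the same genes it was -0.11 with library totals alone, and in a fit of the 2872 genes of at least 50 CPM it was -0.01. Medians of lists are therefore to be read beside the -0.25 of all genes, and those of lists of abundant genes beside -0.28 and -0.52. Below 0 were 7951 of the 14024 genes, 881 of the 1402 and 72 of the 109. At an unadjusted p under 0.05, 195 of the 1402 were negative and 72 positive, and of the 109, 35 and 10.

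Over all 755 negative genes the KO minus flox difference was larger in size after hepatectomy than after sham surgery in 521 (69.0%), and its median was -2.35 after hepatectomy and 0.83 after sham surgery. Of these, 493 were lower in KO than in flox livers after hepatectomy and higher after sham surgery. Over all 352 positive genes it was larger after hepatectomy in 317 (90.1%), with medians of 5.24 after hepatectomy and -0.54 after sham surgery. Among the 195 abundant genes (at least 100 CPM) with a negative interaction at an unadjusted p under 0.05, the KO minus flox difference was larger in size after hepatectomy than after sham surgery in 175 (89.7%). Their median difference was -1.52 after hepatectomy and -0.05 after sham surgery. Of these 195 genes, 121 stood lower after hepatectomy in KO and higher in flox livers, 69 lower in both genotypes and 5 higher in both. Among the 72 abundant genes with a positive interaction the difference was larger after hepatectomy in 62 (86.1%), with medians of 1.09 after hepatectomy and -0.34 after sham surgery. All these genes were chosen by the sign and p of the interaction, which is the difference of these same components. The directions of the splits therefore follow in part from the choice. No share over all tested genes is set beside them, and they are a description only.

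**Figure D2:**
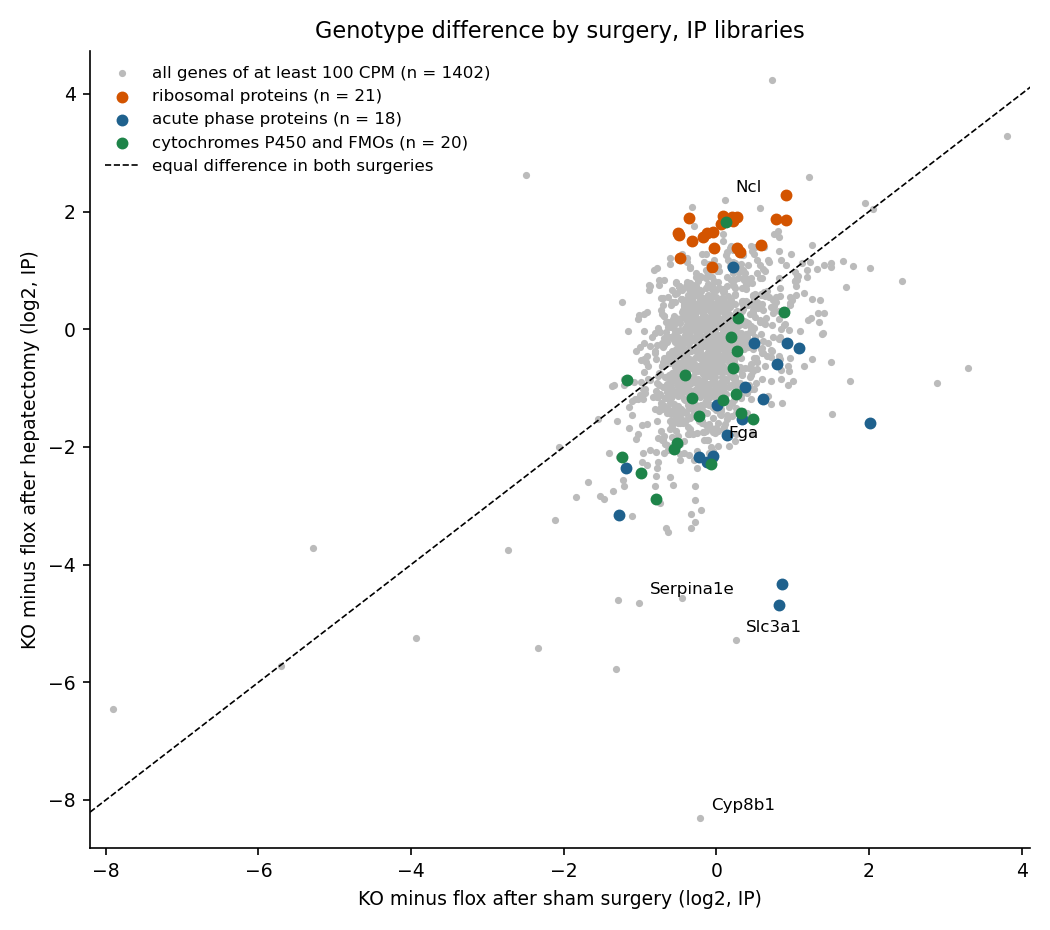
KO minus flox difference in IP libraries after hepatectomy (vertical axis, log2) against the same difference after sham surgery (horizontal axis, log2), for the 1402 genes with a mean of at least 100 CPM. Ribosomal protein genes (orange) lie above the dashed line of equal differences, and most acute phase (blue) and cytochrome P450 or FMO genes (green) lie below it.

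The 3 fibrinogen chains, which hepatocytes assemble and secrete as the precursor of fibrin, all had negative interactions that did not pass the test. Fga had 13999.7, 13847, 8862 and 21678 CPM in hepatectomised KO livers, against 71086, 66644, 53944 and 40063 CPM in hepatectomised flox livers. Without hepatectomy the levels were 23535, 40438, 40351 and 17394 CPM in sham KO livers, against 22891, 21350.3, 52689 and 23245 CPM in sham flox livers. All 4 hepatectomised KO libraries lay under the hepatectomised flox libraries, and the sham groups overlapped, with sham flox replicate 3 far above its group. The interaction of Fga was -2.01 (SE 0.47, edgeR adjusted p = 0.184, n = 4 each). It passed without sham flox replicate 3 (-2.43, adjusted p = 0.0207) and without hepatectomised KO replicate 4 (-2.27, 0.0326). Fgb had 3741, 3918, 2751 and 5064 CPM in hepatectomised KO livers, against 13254, 13932, 9286 and 8183 CPM in hepatectomised flox livers, again with no overlap, and 7277, 14199, 7895 and 5133 CPM in sham KO livers, against 6036, 5599, 11188 and 8557 CPM in sham flox livers (interaction -1.67, edgeR adjusted p = 0.284). Fgg had 2172, 1787, 1202 and 4586 CPM in hepatectomised KO livers, against 7884, 8049.8, 4217 and 4314 CPM in hepatectomised flox livers, where KO replicate 4 reached into the flox range, and its interaction was -1.29 (edgeR adjusted p = 0.591). In the inputs the interactions were -0.40, -0.43 and -0.51 (edgeR adjusted p = 0.308, 0.319 and 0.326). All 3 had an unadjusted p under 0.05 there. Negative at that level were 4.76% of all input genes, and 14 of the 115 of at least 1000 CPM.

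Other genes of clotting were on the same side of 0, and none was called. All 11 coagulation factors had negative interactions (median -0.95), 2 of them at an unadjusted p under 0.05. F7, the factor that starts the extrinsic pathway with tissue factor, had 0, 11.9, 8.46 and 4.19 CPM in hepatectomised KO livers, against 107, 80.2, 76.6 and 112 CPM in hepatectomised flox livers (interaction -4.08, edgeR adjusted p = 0.294). F10, where the pathways meet, stood at -1.15 (adjusted p = 0.536). Of 11 inhibitors and fibrinolysis genes 10 were negative, 7 at an unadjusted p under 0.05, with a median of -1.18. Among them were Kng1, kininogen, at -1.22, Cpb2, the inhibitor of fibrinolysis TAFI, at -2.09, Plg, plasminogen, at -1.27, and Serpinf2, the plasmin inhibitor, at -1.15 (edgeR adjusted p = 0.392 to 0.579). The medians of these lists in the inputs were 0.13 and -0.0037, beside 0.19 for all input genes.

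Acute phase proteins, the secreted proteins that hepatocytes make under IL-6 and IL-1, had the lowest median of the secreted groups in the fit of all libraries. With 1 library left out their median ran from -2.12 to -1.21. That of the 3 fibrinogen chains, -1.67 with all libraries, ran from -1.89 to -1.32, so the 2 ranges overlapped. Of 21 acute phase genes tested, 20 had a negative interaction, 12 of them and no positive one at an unadjusted p under 0.05, and the median was -1.79. Their summed level was 12785, 12879, 9554 and 20951 CPM in hepatectomised KO livers, against 51064, 54096, 30838 and 23259.5 CPM in hepatectomised flox livers. The groups did not overlap after hepatectomy. After sham surgery it was 15101, 33971, 17685 and 19807 CPM in KO livers, against 9485, 11339, 33193 and 26392 CPM in flox livers, where they overlapped. The sham flox values of 9485 and 11339 CPM were those of the animals aged 77 days. In hepatectomised flox, 51064 and 54096 CPM came from animals aged 73 days and the lower values from animals aged 72 days. The part of age in these sums was not tested. No member passed in the fit of all libraries.

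Saa1, serum amyloid A, had 3.36, 70.6, 16.5 and 77.6 CPM in hepatectomised KO livers, against 1669.9, 1054, 497 and 151 CPM in hepatectomised flox livers, and 202, 828, 296 and 745 CPM in sham KO livers, against 34.7, 50.2, 559 and 501 CPM in sham flox livers. All hepatectomised KO values lay under the hepatectomised flox values. The sham flox group spanned a wide range, its 34.7 and 50.2 CPM being from the animals aged 77 days. Its interaction was -5.18 (SE 1.18, edgeR adjusted p = 0.184; -5.66 with adjusted p = 0.0377 without hepatectomised KO replicate 4). Its paralog Saa2 was at -5.51 (adjusted p = 0.259), and reads could be split between them. Serpina3n, an inhibitor of granzyme B and other proteases, had 1629, 1543, 1413 and 2458 CPM in hepatectomised KO livers, against 8988, 10145, 6278 and 6442 CPM in hepatectomised flox livers. It stood higher in hepatectomised than in sham flox livers without overlap, while in KO livers the surgeries overlapped (1844, 3144, 1965 and 1809 CPM in sham KO, 1456, 1359, 5063 and 2332 CPM in sham flox). Its interaction was -1.96 (edgeR adjusted p = 0.259; -2.53 with adjusted p = 0.0124 without sham flox replicate 3). Steap4, a metalloreductase induced by inflammation, stood at -2.13 (adjusted p = 0.345).

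Complement, plasma carriers and apolipoproteins gave smaller medians. Those of carriers and apolipoproteins were near the -0.52 of all genes of at least 1000 CPM. Of 19 complement genes of hepatocytes 8 had a negative and 0 a positive interaction at an unadjusted p under 0.05 (median -1.05). Serping1, the C1 inhibitor, was at -1.31, the protease C1s1 at -1.61 and C3, on which the pathways converge, at -1.10. Among 16 plasma carriers and protease inhibitors 5 were negative at that level (median -0.54), with Ambp, the precursor of alpha-1-microglobulin and bikunin, at -1.43, Fetub, a fetuin, at -1.47 and Serpina1d at -1.05. Among 15 apolipoprotein and lipoprotein genes 4 were (median -0.55), with Lcat, which esterifies cholesterol in HDL, at -1.69, Apoh at -1.76, Apom, the carrier of sphingosine 1-phosphate, at -1.45 and Apoa1, the main protein of HDL, at -0.92. None of these was called, with edgeR adjusted p-values of 0.477 to 0.612 for the genes named.

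Genes of hepatocyte metabolism were mostly negative too. Among 32 cytochromes P450 and flavin monooxygenases 10 had a negative and 1 a positive interaction at an unadjusted p under 0.05 (median -1.09), and none was called. Their summed level was 5017, 6703, 3636 and 8035 CPM in hepatectomised KO livers, against 10977, 9907, 11254 and 11107 CPM in hepatectomised flox livers, and 11771, 15448, 9488 and 10674 CPM in sham KO livers, against 13598, 14989, 11954 and 18684 CPM in sham flox livers. The groups overlapped after sham surgery and not after hepatectomy.

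Cyp3a13, a drug-oxidising enzyme, had 51.04, 50.3, 43.4 and 61.9 CPM in hepatectomised KO livers, against 283, 280.0, 189 and 261 CPM in hepatectomised flox livers (interaction -2.22, edgeR adjusted p = 0.184). Cyp2e1, the ethanol-oxidising enzyme of hepatocytes around the central vein, had 221, 352, 183 and 899 CPM in hepatectomised KO livers, against 2086, 1700.4, 2873 and 2365 CPM in hepatectomised flox livers, and 2279, 2618, 1644 and 1794 CPM in sham KO livers, against 3252, 3728, 3861 and 5634 CPM in sham flox livers. In both surgeries the KO values of Cyp2e1 lay under the flox values, with differences of -2.45 after hepatectomy and -0.98 after sham surgery on the log2 scale, and the interaction was -1.46 (edgeR adjusted p = 0.508). Cyp2c29 was at -2.10 and Cyp2f2 at -1.47.

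In bile acid synthesis and transport, the list of Cyp8b1, 4 of 20 genes were negative at an unadjusted p under 0.05 (median -0.94) and Cyp8b1 alone was called. Slco1b2, a hepatocyte uptake transporter, stood at -1.46, Slc27a5, which activates bile acids for conjugation, at -1.75 and Cyp7b1, of the alternative synthesis pathway, at -2.87. In fatty acid synthesis, the list of Elovl3, the median of 18 genes was -0.999. Scd1, the main desaturase of liver, had 986, 923, 139.9 and 1243 CPM in hepatectomised KO livers, against 1087, 836, 1319 and 3106 CPM in hepatectomised flox livers, which overlapped, and 6340.1, 5609, 8949 and 5946 CPM in sham KO livers, against 3327, 5421, 1167 and 4039.6 CPM in sham flox livers, where all KO values lay above flox (interaction -1.89, edgeR adjusted p = 0.508). Mlxipl, the carbohydrate-sensing factor ChREBP, stood at -1.47. Me1, which supplies NADPH for the pathway, was positive at 3.74, a low gene with 1 hepatectomised KO library at 0.

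In fatty acid oxidation 6 of 25 genes were negative at an unadjusted p under 0.05 and none was positive (median -0.42). This list was near the abundant genes as a whole. Its median lay between their -0.28 and -0.52, and 17 of its 25 genes were below 0, beside 881 of the 1402. The receptor Ppara stood at -1.86 (edgeR adjusted p = 0.389) and Acsl1, which activates fatty acids, at -1.50 (adjusted p = 0.512). In amino acid breakdown 6 of 27 genes were negative (median -0.89), among them Gnmt, which uses S-adenosylmethionine, the methyl donor also used by m6A writers, at -1.75 (edgeR adjusted p = 0.266), Mat1a, which makes that donor in liver, at -1.75, Hal at -1.69 and Tdo2 at -1.59. Gnmt had 96.9, 112, 67.4 and 135 CPM in hepatectomised KO livers, against 357, 341, 396 and 420.4 CPM in hepatectomised flox livers, with no overlap.

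Abundant genes outside these lists that the rule named on the negative side were Retreg1, an autophagy receptor of the endoplasmic reticulum, Gprin3, Ugt3a2, a glycosyltransferase, and Hspb8, a small heat shock protein. Retreg1 had 23.8, 37.8, 24.7 and 29.9 CPM in hepatectomised KO livers, against 208, 419, 292 and 354 CPM in hepatectomised flox livers, and 72.1, 199, 206 and 78.5 CPM in sham KO livers, against 217, 289, 108 and 249 CPM in sham flox livers. Its interaction of -2.82 (SE 0.59, edgeR adjusted p = 0.113) passed without hepatectomised KO replicate 4 (-2.84, 0.028) or sham KO replicate 1 (-3.04, 0.0468). Gprin3 stood at -2.87, Ugt3a2 at -2.22 and Hspb8 at -2.16 (edgeR adjusted p = 0.113, 0.184 and 0.184).

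Transcription factors that keep hepatocyte identity were negative in 23 of 30 cases, 8 at an unadjusted p under 0.05 and none called (median -0.75). Cebpa, which holds hepatocytes out of the cell cycle and drives metabolic genes, had 159.7, 196, 85.2 and 536 CPM in hepatectomised KO livers, against 959, 695, 1324 and 1328 CPM in hepatectomised flox livers. Its interaction was -1.78 (edgeR adjusted p = 0.411) and passed without hepatectomised KO replicate 4, its highest KO library after hepatectomy (-2.52, adjusted p = 0.0171). Hnf4a, the nuclear receptor at the head of the hepatocyte programme, had 568, 463, 286 and 607 CPM in hepatectomised KO livers, against 997, 1182, 1310.2 and 1203 CPM in hepatectomised flox livers, with no overlap, and 914, 1282, 1314 and 1166 CPM in sham KO livers, against 1159, 1206, 1264 and 1345 CPM in sham flox livers, which overlapped (interaction -1.20, edgeR adjusted p = 0.453). Prox1, a homeobox factor of liver, stood at -1.46.

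For immediate early genes, which switch on within minutes of a stimulus, the sham-operated livers held much of the difference. Their median interaction was -1.19, with 7 of 21 negative and none positive at an unadjusted p under 0.05. The median KO minus flox difference was -0.56 after hepatectomy and 0.96 after sham surgery. Btg2, which restrains proliferation, had 244, 229, 56.2 and 85.4 CPM in hepatectomised KO livers, against 396, 338, 104 and 131 CPM in hepatectomised flox livers, which overlapped. After sham surgery it had 150.2, 547, 128 and 62.4 CPM in sham KO livers, against 17.6, 24.8, 6.55 and 40.8 CPM in sham flox livers, where every KO library lay above every flox library. Its interaction was -3.96 (SE 0.89, edgeR adjusted p = 0.184).

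Egr1, a zinc finger factor of this response, was very uneven within groups. It had 938, 719, 141 and 291 CPM in hepatectomised KO livers, against 2749.5, 846, 127 and 189.9 CPM in hepatectomised flox livers, and 712, 1823, 235 and 97.5 CPM in sham KO livers, against 82.5, 103, 146 and 53.03 CPM in sham flox livers, and its interaction was -3.80 (edgeR adjusted p = 0.339). Ier2 stood at -2.95 (adjusted p = 0.184) and Jund, a part of AP-1, at -1.57 (adjusted p = 0.477). Among 28 ligands and receptors of regeneration the median was -0.99 and 3 receptors were negative at an unadjusted p under 0.05. Egfr, the receptor of EGF and TGF-alpha, had 402, 508, 412 and 1506 CPM in hepatectomised KO livers, against 4195, 3192, 2509 and 3579 CPM in hepatectomised flox livers, and 1256, 1728, 1999.7 and 693 CPM in sham KO livers, against 2531, 2414, 3422 and 2745 CPM in sham flox livers. KO values lay under flox values in both surgeries, and the interaction was -1.28 (edgeR adjusted p = 0.572; -1.97 with 0.0377 without hepatectomised KO replicate 4). Il6ra, the receptor of IL-6, stood at -1.30, Erbb3 at -1.21 and Inhbe, an activin subunit, at -2.02 (unadjusted p = 0.0617).

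**Figure D3:**
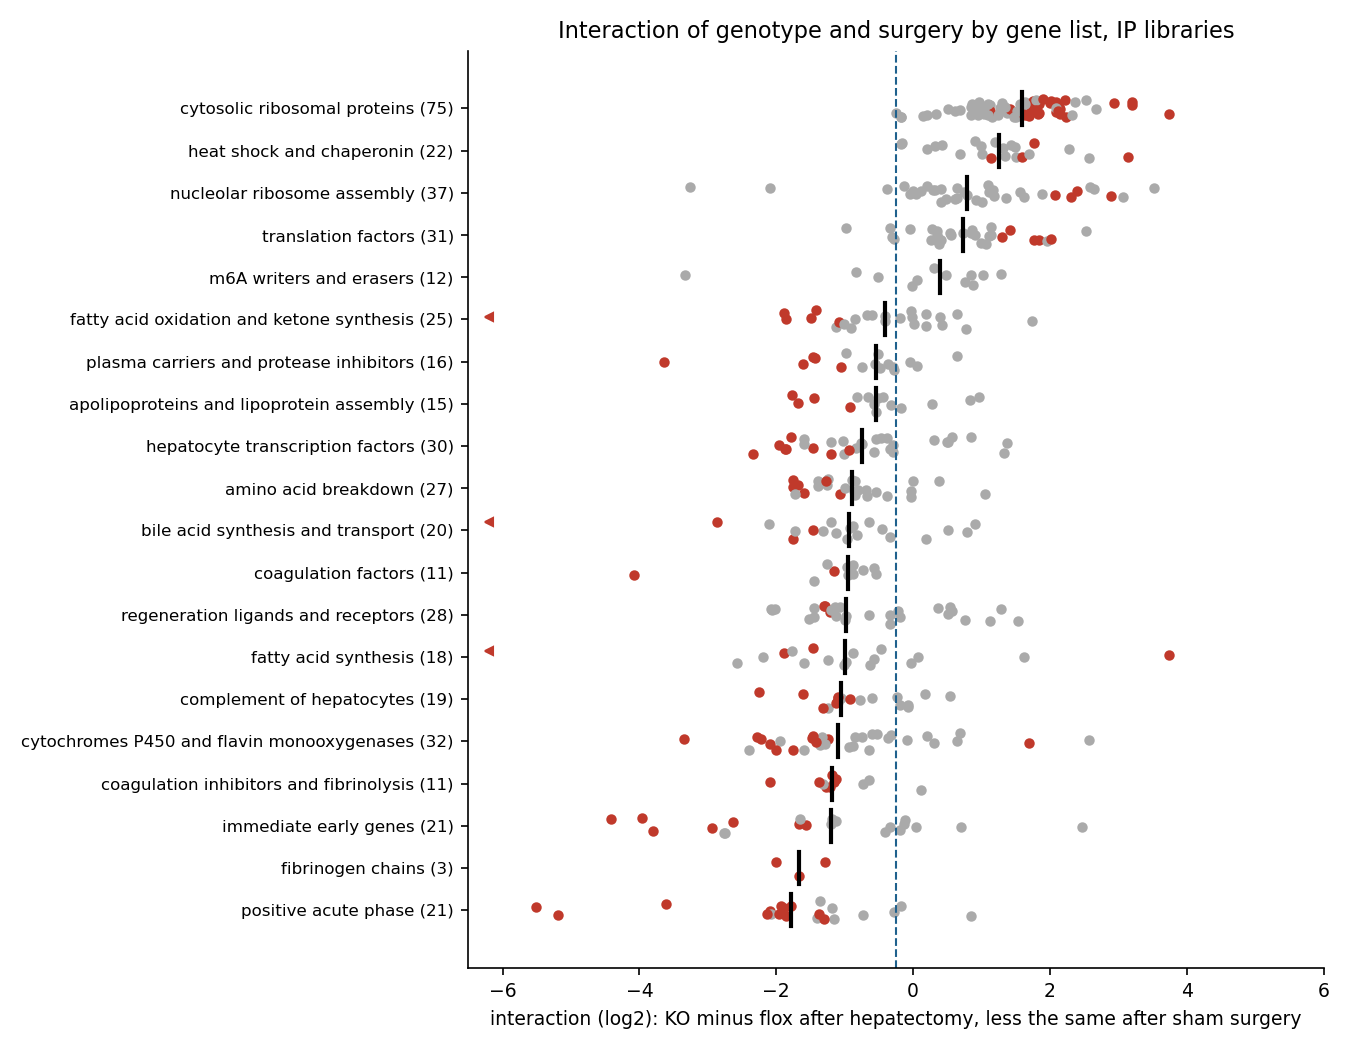
Interaction (horizontal axis, log2) of each tested member of 20 gene lists in the IP libraries, with the number tested in brackets. Red points have an unadjusted p under 0.05, triangles at the left edge are genes under -6, black bars are list medians and the dashed line is the median of all genes (-0.25). Ribosomal proteins lie to the right (median 1.59) and acute phase proteins to the left (median -1.79).

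Ribosomal protein mRNAs had the highest median of the 20 lists plotted by gene. Of 75 cytosolic ribosomal protein genes tested, 72 had a positive interaction, 32 of them and no negative one at an unadjusted p under 0.05, and the median was 1.59. None was called in the fit of all libraries. Their summed level was 13796, 12834, 21014 and 7940.1 CPM in hepatectomised KO livers, against 4805, 5151, 3393 and 3702 CPM in hepatectomised flox livers, and 7779, 5484, 4331 and 6188 CPM in sham KO livers, against 5064, 5784, 5221 and 5984 CPM in sham flox livers. All 4 hepatectomised KO libraries lay above the other 12, replicate 3 highest and replicate 4 only just. The list median was 1.20 without replicate 3 and 1.75 without replicate 4. Reads of these genes can be shared with their many pseudogene copies, so single values are uncertain.

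Rpl12, of the large subunit, had 141, 159.8, 273 and 124 CPM in hepatectomised KO livers, against 41.99, 43.7, 28.8 and 13.6 CPM in hepatectomised flox livers, and 77.8, 11.5, 45.7 and 74.97 CPM in sham KO livers, against 75.3, 117, 97.8 and 64.04 CPM in sham flox livers. Hepatectomised KO livers lay above every other library, and hepatectomised flox livers under every sham flox library. Its interaction was 3.20 (SE 0.74, edgeR adjusted p = 0.184). Rpl26 had 346, 176, 281 and 130.2 CPM in hepatectomised KO livers, against 65.2, 88.1, 62.1 and 92.3 CPM in hepatectomised flox livers (2.09, edgeR adjusted p = 0.259). Without hepatectomised KO replicate 4 the calls included Rpl21 (2.54, adjusted p = 0.0255), Rpl26 (2.28, 0.0326) and Rpl12 (3.33, 0.0326). Among abundant genes the rule also named Fau, Rpl28, Rps6, Rpl10, Rpl17 and Rpl19, at 1.70 to 2.14, and Snw1, a splicing factor, at 1.83 (edgeR adjusted p = 0.294 to 0.406).

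Genes of ribosome assembly and translation were on the same side, and for the nucleolar genes Ncl and Npm1 3 of the 4 hepatectomised KO libraries carried the difference. Of 37 nucleolar genes 4 were positive and none negative at an unadjusted p under 0.05 (median 0.79). Ncl, nucleolin, had 2641, 2324, 4792 and 432 CPM in hepatectomised KO livers, against 488, 522, 601 and 621 CPM in hepatectomised flox livers, and 1107, 258, 609.6 and 441 CPM in sham KO livers, against 486, 561, 557 and 621 CPM in sham flox livers. Replicates 1, 2 and 3 of the hepatectomised KO group lay above all other libraries and replicate 4 lay under the hepatectomised flox group. Its interaction was 2.07 (edgeR adjusted p = 0.372) with all libraries and 2.42 (0.028) without replicate 4. Npm1, nucleophosmin, had 1402, 1320.2, 2756 and 123 CPM in hepatectomised KO livers, against 157, 388, 352 and 432 CPM in hepatectomised flox livers, the same pattern over libraries, with an interaction of 2.39 (edgeR adjusted p = 0.425), and 2.77 (0.0316) without replicate 4. Nop56, of the box C/D snoRNPs, stood at 2.89 and Noc2l at 2.31.

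Among 31 translation factors 5 were positive and none negative (median 0.73), with Eef1b2, an elongation factor subunit, at 1.84, Rack1, a scaffold on the small subunit, at 2.01, Eif3a at 1.41 and Eif3d at 1.77. Of 22 heat shock and chaperonin genes 4 were positive and none negative (median 1.25). Cct2, a subunit of the chaperonin that folds actin and tubulin, had 108, 45.4, 71.6 and 311 CPM in hepatectomised KO livers, against 27.5, 18.7, 10.02 and 5.74 CPM in hepatectomised flox livers, highest in replicate 4 (interaction 3.14, edgeR adjusted p = 0.337). Hspa9, the mitochondrial Hsp70, had 432, 359.5, 506 and 93.5 CPM in hepatectomised KO livers, against 118, 180.3, 139 and 163 CPM in hepatectomised flox livers, lowest in replicate 4, with an interaction of 1.60 (edgeR adjusted p = 0.477) and of 1.90 (0.0326) without that library. Hsp90ab1 stood at 1.13 and Tcp1 at 1.76.

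The order of the hepatectomised KO libraries was shared by several groups. Replicate 3 had the highest summed level of ribosomal and nucleolar genes and the lowest of acute phase, fibrinogen, cytochrome P450 and hepatocyte marker genes, and replicate 4 the lowest of the first and the highest of the second. The share of counts on mitochondrial mRNAs was 18.8%, 16.4%, 24.1% and 8.62% in replicates 1 to 4 of this group, against 10.3% to 12.7% in hepatectomised flox, 7.94% to 14.4% in sham KO and 8.87% to 15.8% in sham flox libraries. The part of this difference between libraries in the list medians was not tested.

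**Figure D4:**
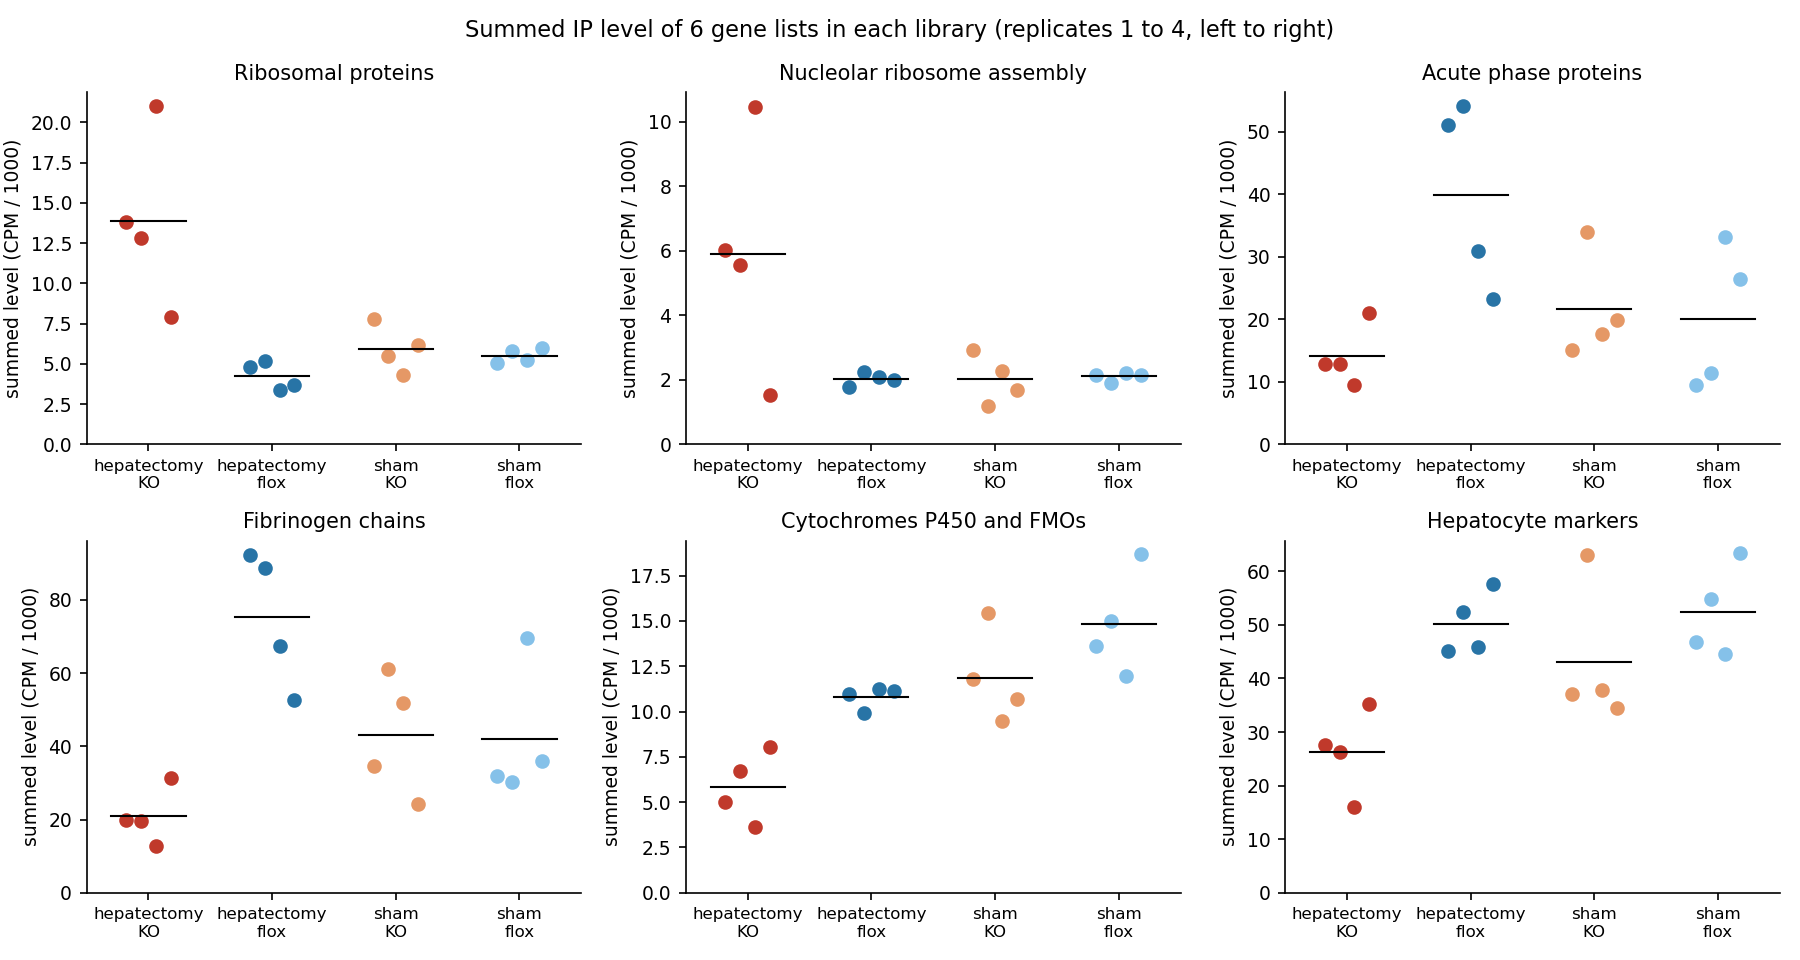
Summed level of 6 gene lists in each IP library (vertical axis, CPM divided by 1000) in hepatectomised KO, hepatectomised flox, sham KO and sham flox livers. Points are replicates 1 to 4 from left to right and bars are group means. The ribosomal protein sum is above all other libraries in the 4 hepatectomised KO livers, and the acute phase, fibrinogen and cytochrome P450 sums are under all 4 hepatectomised flox livers.

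Cell cycle genes were low and gave large fitted values with large errors. Of 36 genes of G2/M and mitosis tested 8 were negative and 1 positive at an unadjusted p under 0.05 (median -4.58), and none was called. Many were near 0 in sham flox livers, where a fitted value is no bound: the summed level of the list was 1793, 1513, 761 and 2860.0 CPM in hepatectomised KO livers, against 1027, 965, 555 and 768 CPM in hepatectomised flox livers, and 449, 178, 176 and 284 CPM in sham KO livers, against 74.1, 98.1, 143 and 60.6 CPM in sham flox livers. The KO and flox ranges overlapped after hepatectomy and not after sham surgery, where KO livers were higher. The median interaction of the list was -1.04 without sham KO replicate 4, and -0.31 over genes of at least 50 CPM. Top2a, the topoisomerase of mitotic chromosomes, had 29.4, 48.4, 0.277 and 52.9 CPM in hepatectomised KO livers, against 28.1, 25.5, 12.4 and 12.6 CPM in hepatectomised flox livers, and 17.3, 3.03, 6.76 and 6.36 CPM in sham KO livers, against 0, 0, 0 and 0.0633 CPM in sham flox livers (interaction -7.61, edgeR adjusted p = 0.266). Prc1 and Hmmr, of the mitotic spindle, were at 0 in all 4 sham flox libraries. Smc2, a condensin subunit, was the positive one, with 41.1, 27.3, 33.8 and 108 CPM in hepatectomised KO livers, against 4.08, 8.41, 3.26 and 9.61 CPM in hepatectomised flox livers, and 0.169, 8.56, 6.81 and 4.19 CPM in sham KO livers, against 17.6, 11.4, 28.6 and 2.91 CPM in sham flox livers (interaction 4.66, edgeR adjusted p = 0.413).

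Among 32 genes of G1/S and DNA replication 4 were negative and none positive (median 0.72). The sign of this median did not hold: it was -0.29 without hepatectomised KO replicate 2, -0.04 without sham flox replicate 4 and -2.44 over genes of at least 50 CPM. It was 0.01 without sham flox replicate 1 and 0.05 without sham flox replicate 3. Ccnd1, the cyclin that opens G1, had 102, 143, 31.4 and 237 CPM in hepatectomised KO livers, against 52.7, 34.3, 29.7 and 47.03 CPM in hepatectomised flox livers, and 63.4, 51.4, 32.5 and 129 CPM in sham KO livers, against 0, 0.943, 1.96 and 12.5 CPM in sham flox livers. Its sham KO values lay above all sham flox values, and the interaction was -2.50 (SE 1.19, edgeR adjusted p = 0.629). Mcm5 and E2f2 were at 0 in all 4 sham flox libraries and Ccne1 in 3 of 4.

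Of the genes that write or erase m6A, 0 of 12 had an unadjusted p under 0.05 (median 0.39), beside 7.89% of all genes tested. A list of this length is too short to tell such a count from that share. Of 12 readers tested 1 was positive, Hnrnpa2b1 at 1.18 (unadjusted p = 0.0451), named after its values were seen, and the median was -0.04. The secretory pathway (0 of 30, median 0.18), cholesterol synthesis (0 of 20, -0.13), RNA decay (0 of 24, -0.73) and nuclear oxidative phosphorylation (0 of 30, 0.38) had no member at that level either. Without hepatectomised KO replicate 3 the median of nuclear oxidative phosphorylation was -0.14. Without hepatectomised KO replicate 4 that of RNA decay was -0.38 (-0.48 without sham flox replicate 3) and that of cholesterol synthesis -0.62. With 1 library left out, the medians of the readers, the secretory pathway and cholesterol synthesis fell on both sides of 0. Among periportal genes 5 of 15 were negative (median -1.25), and among pericentral genes 3 of 17 (median -0.50).

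Markers of other cells were measured beside these groups. Stellate cell and fibroblast markers summed to 806 to 1157 CPM in hepatectomised KO livers, 376 to 594 in hepatectomised flox, 360.2 to 1071 in sham KO and 243 to 330.5 CPM in sham flox livers, so that KO livers lay above flox livers after both surgeries. Of the 13 genes, 2 were negative and none positive at an unadjusted p under 0.05 (median -0.95, and 0.04 without sham KO replicate 1). Kupffer cell and macrophage markers summed to 647 to 1349.9, 499 to 866, 579 to 1035 and 408 to 702 CPM in the 4 groups in that order (0 of 13 in either direction), and endothelial markers to 1186 to 1753, 914 to 1183, 914 to 1308 and 914 to 1191 CPM (0 of 13). Markers of neutrophils were low, at 0.165 to 57.6, 0 to 28.9, 0.96 to 25.7 and 1.84 to 33.00 CPM, with 4 of 10 genes high enough to test. Markers of lymphocytes reached 0.33 to 167, 9.85 to 32.3, 25.9 to 100.4 and 0 to 13.3 CPM, with 4 of 14 tested. Cholangiocyte markers summed to 49.7 to 216, 15.2 to 212, 33.02 to 185 and 5.61 to 40.6 CPM, and all 6 tested of 8 were negative, 1 at an unadjusted p under 0.05 (median -2.27, and -4.79 to -0.74 with 1 library left out). Erythroid markers summed to 25.3 to 52.3, 33.5 to 185, 26.4 to 66.9 and 54.96 to 121 CPM, with 4 of 5 tested negative, 1 at that level (median -1.26). Of the 8 hepatocyte markers, 3 were negative and none positive (median -0.66). Their part in the results above was not tested.

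The input libraries of the same 16 animals made no call for this interaction (0.0% of 8775 genes tested with edgeR, 0 higher and 0 lower). In simulated data with the real spread, the input test called 5% of interactions of log2 size 4. The absence of input calls therefore does not show that the inputs were without differences. At an unadjusted p under 0.05 there were 660 positive (7.52%) and 418 negative genes (4.76%), and DESeq2 called 1215. In the simulated input data 861 of 7939 genes with no interaction put in were also under 0.05, so such counts have a high background. Over the 1156 genes of at least 100 CPM in both kinds of library, Pearson's r between the IP and input interactions was 0.12 and Spearman's rho 0.15. For the 100 genes of at least 1000 CPM they were 0.44 and 0.43. These are correlations across genes, given as a description with no p, and each IP library has an input from the same numbered animal. The input median of the ribosomal protein list was 0.43, that of the acute phase list -0.48 and that of the cytochromes P450 -0.25, beside 0.19 for all input genes. Several lists with a negative IP median had a positive one in input. Among them were fatty acid oxidation (0.87), immediate early genes (0.54), fatty acid synthesis (0.37) and hepatocyte transcription factors (0.28).

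**Figure D5:**
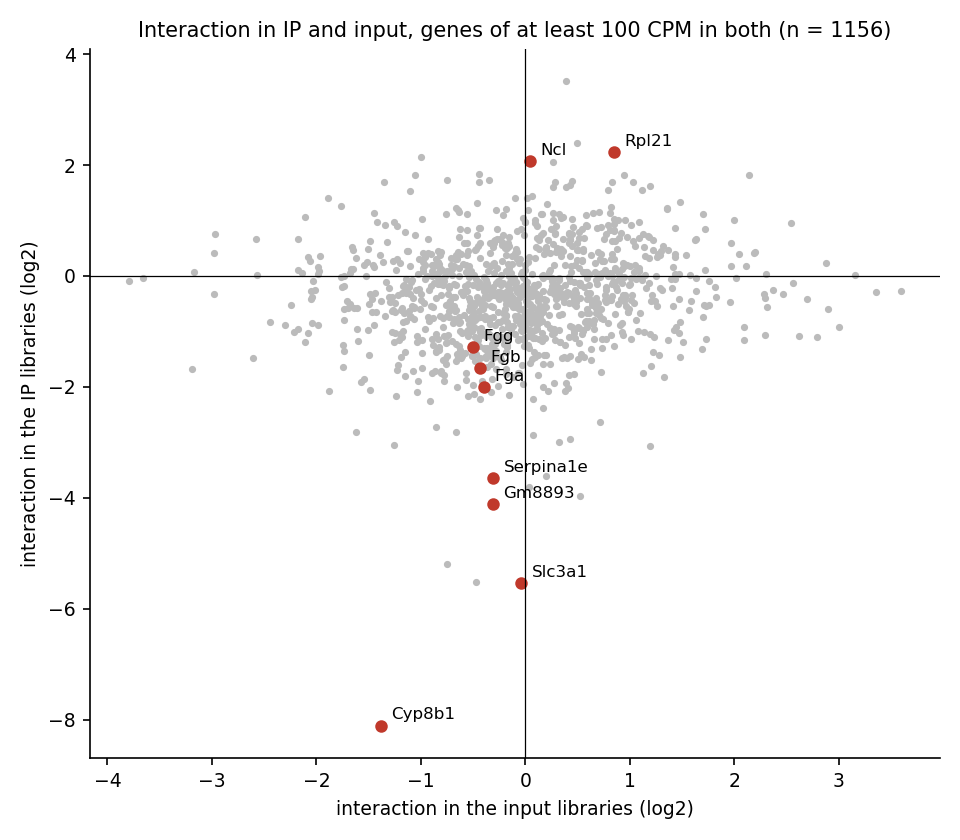
Interaction in the IP libraries (vertical axis, log2) against that in the input libraries (horizontal axis, log2) for the 1156 genes of at least 100 CPM in both. Red points are named genes; Cyp8b1 lies at -8.11 in IP and -1.38 in input, and Slc3a1 at -5.54 and -0.04.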

How the data were processed

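Each of 16 mouse livers gave an IP and an input library. Per the labels' protocols, IP RNA was fragmented, pulled down with an anti-m6A antibody and prepared with another kit than the input, a stranded mRNA kit. The deposited expected counts were made by the authors with fastp and STAR, per the submitters' processing notes. The counting program, its strand setting, the genome build and the annotation are unstated there. Of the values of an IP column, 1.90% to 8.22% were not whole, and all were rounded. By position, 36236 of 55421 genes took a RefSeq name (GRCm38.p6), with 95.6% of the counts.

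The interaction was fitted over the 16 IP libraries, and likewise over the 16 inputs, by the quasi-likelihood F-test of edgeR (version 4.0.16, R 4.3.3), with TMM factors, a minimum count of 10 in filterByExpr and a Benjamini-Hochberg threshold of 0.05. CPM use the TMM-scaled totals, which ran from 7133766 to 24297854 counts before scaling in IP and from 8177784 to 12533931 in input. The labels number the libraries of a group as replicates and each IP library has an input of the same animal code. Where nothing else ties them to separate cultures or litters, p-values measure the spread between these samples. The rule named Fga, Fgb, Fgg and Mettl14; calls with at least 5 CPM in the highest group; up to 12 abundant genes each way by p; and up to 4 members by p of each list described. Some genes that the rule named are not reported here. Members, lists and tests were chosen with earlier results of these data known, so lists are described by counts and medians only. Alternatives were DESeq2 1.42.0, voom (limma 3.58.1), other scaling factors and filters, each library left out, the replicate number or the animal as a block, the input as a further term, and leaving out the 77-day animals. The scripts were tested on simulated data with the spread of the real libraries. Of interactions of log2 size 2 and 4 put in, 0% and 27% were called in IP, and 2% and 5% in input. Genes that did not pass are therefore not shown to be unchanged. Intervals at 95% were taken from the counts summed over the animals of the lower group and cover counting error only. They leave out the spread between animals and the error of the higher group. Duplicate PCR reads, which carry no molecular identifiers, were not allowed for. No pair of libraries of a group agreed within sampling noise (chi-square per degree of freedom 104 to 771).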

Additional observations from a re-analysis of the deposited data

Results flagged for a closer look

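In the main fit the KO minus flox difference depended on surgery, by the test of the interaction itself, for 4 genes. They were Elovl3 (-9.28), Cyp8b1 (-8.11), Slc3a1 (-5.54) and Gm8893 (-4.12), on the log2 scale. Of 27 alternative settings, the call held in 24 for Elovl3, 25 for Cyp8b1, 19 for Slc3a1 and 24 for Gm8893. Single libraries stood far from the other 3 of their group in 7 of 132 groups examined, a check that flags some groups by chance. Fga was at 52689 CPM in sham flox replicate 3, above its group. Mettl14 was at 2.70 CPM and Cyp8b1 at 3.28 CPM in hepatectomised KO replicate 2, above the others. Rpl17 reached 205.8 CPM in 1 sham KO library and Rpl19 reached 152 CPM in 1 hepatectomised flox library, each apart from its group. Sham KO replicate 4 had 16846 genes of at least 10 counts, the most of its group, and 21.8% of its counts in its top 20 genes, the least.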

How the results depend on the processing

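The 4 IP calls (0 higher, 4 lower) stayed at 4, the same 4 genes, with upper-quartile factors, library totals and genes of at least 50 CPM. Other settings gave 266 calls (88 higher, 178 lower) with DESeq2, 81 with voom and sample weights (1 of the 4 kept), 80 with no filter, 11 in a fit of all 32 libraries, 5 for the IP/input interaction (none of the 4), 15 for it with the animal as a block (1 of the 4, Cyp8b1), and 2 without the 77-day sham flox animals, where fewer samples were fitted. For the input, with 0 calls, they were 1215 with DESeq2, 2 with no filter, 2 with voom and 4 without the 77-day animals. Leaving out each library gave 3 to 39 IP calls and 1 to 4 input calls; in IP, 39 came without hepatectomised KO replicate 4, 12 without hepatectomised KO replicate 2, 10 without sham flox replicate 4 and 7 without sham KO replicate 1. The replicate block gave 4 calls in IP and 5 in input. The numbers gave no clear pairing of the samples, and these few pairs cannot settle whether there was some. Correlations of same-numbered IP libraries ran from -0.12 to 0.35, with 4 of 24 over 0.1. Those of differently numbered IP libraries ran from -0.30 to 0.13, with 6 of 72 over 0.1. Of the 16 IP libraries, 5 correlated best with their own number. Slc3a1 lost its call without the 77-day animals (-5.48), as did Gm8893 (-3.70, adjusted p = 0.0575). With voom, Elovl3 was at adjusted p = 0.16 and Cyp8b1 at 0.079, and for the IP/input interaction both were at 0.0635, Gm8893 at 0.0713 and Slc3a1 at 0.247. With the animal block Elovl3 was at 0.11, Gm8893 at 0.544 and Slc3a1 at 1. Signs turned for Mettl14 (-1.54 for IP/input with the animal block, -5.48 with the replicate block, and -5.58 to 1.81 with 1 library left out), Rps6 (-0.40 for IP/input, -0.64 with the animal block), Me1 (-5.24 and -10.46), Ccnd1 (3.03 and 1.996), E2f2 (1.13 for IP/input, 0.49 with voom), and, with the animal block, Inhbe (1.89), Tcp1 (-3.17) and Rpl12 (-0.080); the causes were not tested. Of 2636 values for 98 named genes, 2474 kept their direction and side of the threshold, 131 passed it newly, 16 lost it and 15 turned. Of 1373 medians of 51 lists, 105 moved by more than the spread between replicates. Levels near 0 limit the cell cycle genes and Mettl14.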
